A study of Homo sapiens with 6 samples.

Results

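The mucins are large glycoproteins whose protein core carries dense O-linked sugar chains, and 9 secreted and membrane-bound mucin genes were followed here: MUC1, MUC2, MUC3A, MUC4, MUC5AC, MUC5B, MUC13, MUC16 and MUC20. They were taken from the count table by gene symbol, and all 9 were found among its 60624 genes. RNA-seq counts came from A549, an established human lung cancer line often used to study airway mucin expression. Cells that had lost RAVER1 through CRISPR/Cas9 editing (genotype RAVER1 knockout, 3 libraries) were set against unedited parental cells (genotype WT, 3 libraries). No other allele, agent or time point is given for either group. The RAVER1 protein binds RNA and works together with PTBP1, a regulator of splicing. The knockout libraries all carry the name KO2, and the labels do not say whether that is 1 clone. The series design calls the libraries biological replicates but names no separate knockout lines, so p-values measure the spread between these libraries.

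The secreted, gel-forming mucins MUC2, MUC5AC and MUC5B are assembled into polymers by disulfide bonds and give mucus its structure. MUC5AC and MUC5B are the main gel-forming mucins of airway mucus, and MUC2 is the main one of the intestine. The membrane-bound mucins MUC1, MUC3A, MUC4, MUC13, MUC16 and MUC20 are anchored in the apical surface of epithelial cells, where they form a barrier and can pass signals to the cell interior. Much of each protein is made of repeated stretches rich in serine and threonine, to which the sugars are attached.

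Total counts ran from 31200927 to 39910127 in the knockout libraries and from 29811747 to 34359060 in the parental libraries. RAVER1 itself stood at 2.73 ± 0.17 CPM (read counts scaled to library size, in counts per 1e6) in knockout cells and 69.7 ± 3.8 CPM in parental cells (SD, n = 3 each), so the level of the deleted gene matched the labels. The epithelial genes KRT7, KRT8 and KRT18 were abundant in both groups. The alveolar type II genes SFTPA1, SFTPB and SFTPC had 12 counts in all over the 3 knockout libraries and 9 over the 3 parental libraries. Another type II marker, ABCA3, was well expressed, with a mean of 81.9 CPM in knockout and 104.8 CPM in parental cells (log2 fold change -0.36). The 8 type II markers summed to 77.2 to 87.5 CPM in knockout and 103 to 110 CPM in parental libraries, nearly all of it ABCA3. Summed levels of 6 simple-epithelium markers were 6417 to 7095 CPM in knockout and 8480 to 9335 CPM in parental libraries, and 5 of the 6 fell. The log2 fold changes were -2.20 for CDH1, -1.89 for KRT19, -1.70 for EPCAM, -0.94 for KRT18 and -0.73 for KRT8. KRT7 rose by 0.55. The keratins make up most of the sum, so it does not show the larger falls of CDH1 and EPCAM. Leukocyte, endothelial and fibroblast markers are given with the secretory cell markers below.

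Between knockout and parental cells, 3 of the 9 mucins fell and none rose. The gel-forming mucin MUC5B fell to 9.57% of its parental level, and the membrane mucin MUC13 fell to 51.4%. MUC1, also membrane-bound, was lower by a small margin at the edge of the threshold. MUC5AC, by far the most abundant mucin transcript, and MUC3A did not pass the test. MUC2, MUC4, MUC16 and MUC20 had too few counts to enter it. Fold changes were fitted with edgeR's quasi-likelihood test over the 16652 genes that passed its low-count filter, with Benjamini-Hochberg adjustment over all of them and a threshold of 0.05. Of those 16652 genes, 41.4% passed that threshold. Those lower in knockout cells made up 20.1% of all tested genes and those higher 21.3%. With upper-quartile scaling the balance turned, to 3872 lower and 3098 higher genes against 3343 lower and 3543 higher. Passing the threshold was thus common in this comparison. Of the 9 mucins, 5 passed the filter and 4 did not.

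Promoter sequence was at hand for 6 of the 9 mucins, from RefSeq on GRCh38.p14, and is shown for MUC13 and MUC1, the members with lower levels in knockout cells that had an entry. MUC5AC, MUC5B and MUC20 had no entry. Each sequence is the 250 bases before the RefSeq transcription start on the gene's own strand, chr3:124934752-124935001 on the minus strand for MUC13 and chr1:155192916-155193165 on the minus strand for MUC1. Capitals mark matches, on either strand, to 4 short motifs. The TATA box was searched for as TATAAA. The binding site of SP1-like factors, the GC box, was searched for as GGGCGG. The E-box bound by the SNAI and ZEB repressors was searched for as CACCTG. The cAMP response element was searched for as TGACGTCA.
MUC13: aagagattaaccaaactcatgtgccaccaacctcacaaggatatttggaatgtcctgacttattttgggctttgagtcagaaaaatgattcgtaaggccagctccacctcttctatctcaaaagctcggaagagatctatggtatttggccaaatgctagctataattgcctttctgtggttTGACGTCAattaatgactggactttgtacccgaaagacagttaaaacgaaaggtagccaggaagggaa
MUC1: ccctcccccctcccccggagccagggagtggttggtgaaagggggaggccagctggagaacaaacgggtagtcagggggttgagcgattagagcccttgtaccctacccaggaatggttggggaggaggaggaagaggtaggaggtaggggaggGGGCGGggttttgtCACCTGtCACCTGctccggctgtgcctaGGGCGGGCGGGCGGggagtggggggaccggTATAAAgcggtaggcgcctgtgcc
The MUC13 window held a single match, to TGACGTCA, which begins 68 bases before the RefSeq start and occurs in 1.77% of 27305 promoters of the same length. The MUC1 window held TATAAA, found in 11.1% of promoters, and 2 copies of CACCTG, a motif present in 17.5% of promoters. It also held 4 matches to GGGCGG, of which 3 overlap in 1 run, and that motif occurs in 42.3% of promoters. The base composition of the windows differed, with 41.6% G and C in MUC13 and 66% in MUC1. These matches describe letters only, and binding was not measured.

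MUC5B (ENSG00000117983, hg38 chromosome 11, 1223066 to 1262172, plus strand) had counts of 82, 32 and 39 in the knockout libraries and 322, 653 and 431 in the parental libraries. Its levels were 2.12, 0.804 and 1.26 CPM in knockout cells, against 9.39, 21.5 and 13.3 CPM in parental cells. Every knockout library lay below every parental library, which was also true of 24.8% of all tested genes. The mean was 1.39 ± 0.67 CPM in knockout and 14.7 ± 6.2 CPM in parental cells (SD, n = 3 each). On the log2 scale MUC5B fell by 3.39 (SE 0.28, edgeR adjusted p 1.38e-08). Of all tested genes, 3.83% both passed the threshold and were at least 2-fold lower in knockout cells. MUC5B was also the tested mucin that varied most among libraries of a group. Its highest level was 2.64 times its lowest among knockout libraries and 2.29 times among parental libraries, while the other 4 tested mucins stayed within 1.31 times. An antisense transcript, MUC5B-AS1, shares 434 exon bases with MUC5B and had a count of 0 in every library.

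MUC5AC (ENSG00000215182, chromosome 11, 1157953 to 1201138, plus strand) is the next gene to MUC5B in the gel-forming mucin cluster, with 21.9 kb between them. It had counts of 6008, 5645 and 4766 in the knockout libraries and 4880, 4395 and 4756 in the parental libraries. These correspond to 155, 142 and 154 CPM in knockout cells and to 142, 145 and 146 CPM in parental cells, and the groups overlapped. The log2 fold change was 0.057 (SE 0.045, edgeR adjusted p 0.339), so MUC5AC did not pass the test although its counts were the highest of the family. Within the same library, 73.3, 176 and 122 MUC5AC reads were counted per MUC5B read in knockout cells, against 15.2, 6.73 and 11.03 in parental cells. The mean log2 ratio was 6.86 ± 0.64 in knockout and 3.38 ± 0.59 in parental cells (SD, n = 3 each). The difference of 3.48 had a two-sided exact permutation p of 0.1, the smallest that 3 libraries against 3 allow.

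MUC2 (ENSG00000198788, chromosome 11, 1074875 to 1110511, plus strand) lies 47.4 kb before MUC5AC in the same cluster and was close to absent. It had 8, 4 and 8 counts in the knockout libraries and 2, 5 and 2 in the parental libraries, or 0.101 to 0.258 CPM in knockout and 0.0583 to 0.165 CPM in parental cells, so the groups overlapped. It did not pass the low-count filter. In a fit without the filter its log2 fold change was 0.96 (SE 0.63, edgeR adjusted p 0.342).

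**Figure D1:**
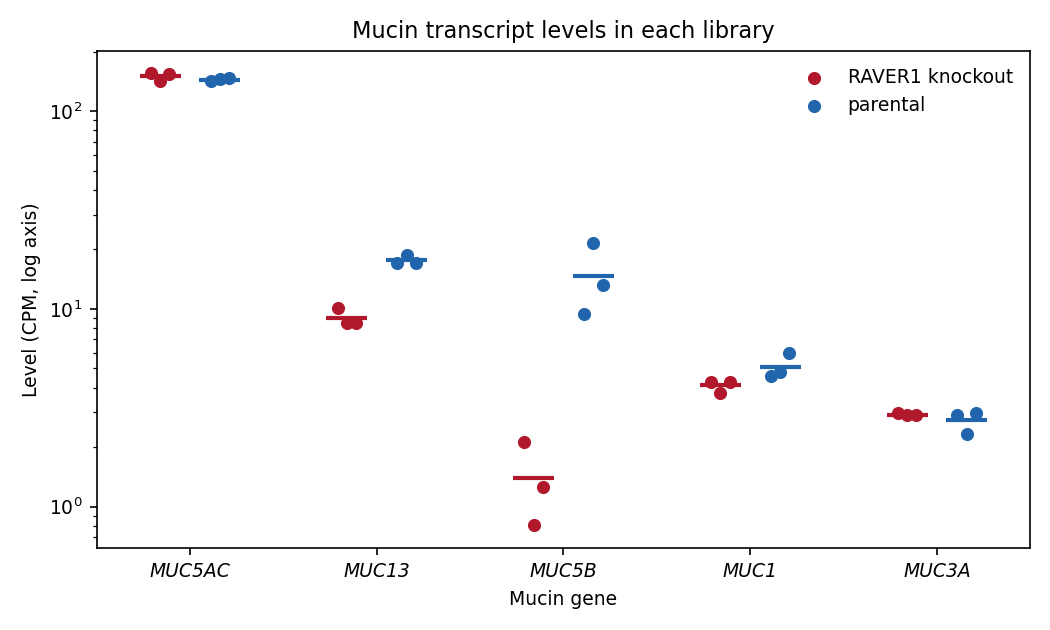
Levels of the 5 mucins that passed the low-count filter, in CPM on a log axis, with a point for each library and a line at the mean of 3 libraries. Knockout libraries of MUC5B sit between 0.804 and 2.12 CPM, all below the parental libraries at 9.39 to 21.5 CPM, while those of MUC5AC and MUC3A overlap the parental ones.

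Of the 10 tested genes nearest to MUC5B, 5 on each side, 3 rose and 1 fell, beside 21.3% higher and 20.1% lower over all tested genes. Their median log2 fold change was 0.096, beside 0.10 for the 895 tested genes of chromosome 11. TOLLIP, an adaptor of Toll-like receptor signalling that lies 12.2 kb beyond the end of MUC5B, stood at 0.070 (SE 0.049, edgeR adjusted p 0.282), and its antisense neighbour TOLLIP-AS1 at 0.098 (SE 0.29, edgeR adjusted p 0.823). AP2A2, a subunit of the AP-2 endocytic adaptor and the nearest tested gene before the mucin cluster, stood at 0.083 (SE 0.054, edgeR adjusted p 0.239). CHID1, the next, rose by 0.15 (SE 0.047, edgeR adjusted p 0.0144). DUSP8, a phosphatase of MAP kinases 292 kb away, was the lower gene, at -1.36 (SE 0.29), and is named here because of its value. MUC6, the first gene of the mucin cluster, had a count of 0 in all libraries.

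**Figure D2:**
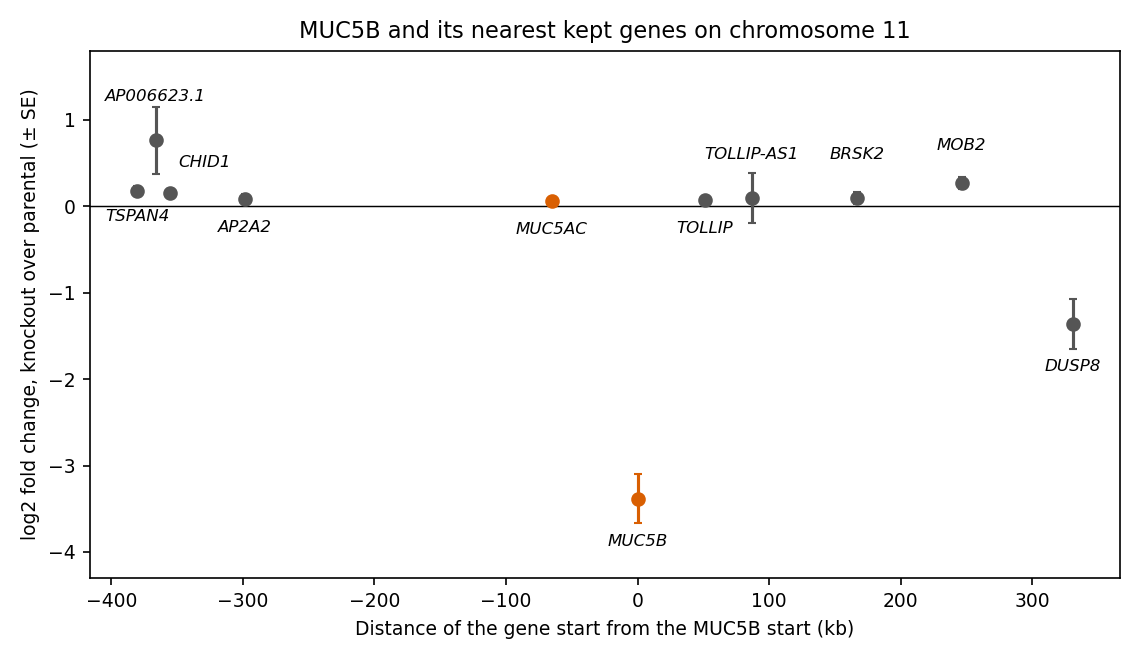
Log2 fold change, knockout over parental, with its SE for MUC5B and the 10 nearest tested genes, against the distance of each gene's start from the start of MUC5B in kb. Mucin genes are orange: MUC5B lies at -3.39 and MUC5AC at 0.057.

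Among the membrane-bound mucins, MUC13 (ENSG00000173702, chromosome 3, 124905442 to 124953819, minus strand), a mucin of gut and airway epithelium with EGF-like domains, had the highest level per length. It had counts of 392, 337 and 264 in the knockout libraries and 587, 571 and 552 in the parental libraries. Its levels were 10.1, 8.47 and 8.50 CPM in knockout cells, against 17.1, 18.8 and 17.0 CPM in parental cells. The groups were well apart and each was tight. Of all tested genes, 24.8% had every knockout library below every parental library. The mean was 9.04 ± 0.95 CPM in knockout and 17.6 ± 1.0 CPM in parental cells (SD, n = 3 each). On the log2 scale MUC13 fell by 0.96 (SE 0.085, edgeR adjusted p 2.99e-08). Of the 10 nearest tested genes, 3 rose and 0 fell in edgeR, beside 21.3% higher and 20.1% lower over all tested genes. HEG1, itself a mucin-like membrane receptor whose gene lies 11.9 kb from MUC13, rose by 1.38 (SE 0.060), and the solute carrier SLC12A8 rose by 2.83 (SE 0.15). On the other side, ITGB5, an integrin subunit, rose by 0.21 (SE 0.044) and UMPS, an enzyme of pyrimidine synthesis, stood at -0.0020 (SE 0.047, edgeR adjusted p 0.979).

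MUC1 (ENSG00000185499, chromosome 1, 155185824 to 155192916, minus strand), whose cytoplasmic tail is known to bind signalling proteins such as beta-catenin, had counts of 165, 150 and 133 in the knockout libraries and 156, 145 and 194 in the parental libraries. Its levels were 4.27, 3.77 and 4.28 CPM in knockout cells, against 4.55, 4.77 and 5.97 CPM in parental cells. The groups did not overlap, but the nearest libraries were close. Groups without overlap were found for 50.2% of all tested genes, 24.8% as lower and 25.3% as higher in knockout cells. The log2 fold change was -0.31 (SE 0.12, edgeR adjusted p 0.0499). With any of 4 libraries left out MUC1 no longer passed, at -0.36 and -0.19 without the second or the third parental library and at -0.25 and -0.34 without the second or the third knockout library. It also missed the threshold with DESeq2 (adjusted p 0.104) and limma-voom (adjusted p 0.0588). Of the 10 tested genes nearest to MUC1, 2 rose and 4 fell, beside 21.3% higher and 20.1% lower over all tested genes. Their median log2 fold change was -0.10. The nearest tested genes before MUC1, TRIM46 and KRTCAP2, rose by 0.49 (SE 0.14) and 0.52 (SE 0.16). On the other side, AC234582.1 stood at 0.064 (SE 0.36, edgeR adjusted p 0.910) and THBS3, a thrombospondin, at -0.22 (SE 0.096, edgeR adjusted p 0.0790).

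MUC3A (ENSG00000169894, chromosome 7, 100949555 to 100968346, plus strand), best known from intestine, had counts of 115, 115 and 90 in the knockout libraries and 100, 71 and 97 in the parental libraries. Its levels were 2.97, 2.89 and 2.90 CPM in knockout cells, against 2.92, 2.34 and 2.98 CPM in parental cells, and the groups overlapped. The log2 fold change was 0.085 (SE 0.14, edgeR adjusted p 0.667). AC254629.1, which shares 739 exon bases with MUC3A on the opposite strand, had 0 counts in knockout libraries and 1, 0 and 1 in parental libraries. MUC12, another membrane mucin, begins 1.28 kb beyond the end of MUC3A and rose, with counts of 116, 75 and 56 in the knockout libraries and 42, 46 and 54 in the parental libraries (log2 fold change 0.62, SE 0.21, edgeR adjusted p 0.0230). Mucin coding sequence is repetitive, and the rule for reads that match several places is not known. Whether reads of MUC3A and its relatives were fully separable was not tested. MUC12-AS1, on the opposite strand of MUC12, stood at 0.30 (SE 0.17, edgeR adjusted p 0.190). On the other side of MUC3A, the acetylcholinesterase gene ACHE stood at 0.52 (SE 0.30, edgeR adjusted p 0.181) and UFSP1, a protease of the UFM1 pathway, at -0.20 (SE 0.15, edgeR adjusted p 0.334).

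The other 3 membrane mucins were at or near the limit of detection. MUC4 (ENSG00000145113, chromosome 3, 195746765 to 195812277, minus strand), a partner of the receptor ERBB2, had a count of 0 in all 6 libraries, and a count of 0 allows up to 3 counts, or 0.0754 to 0.0966 CPM in knockout and 0.0875 to 0.0987 CPM in parental libraries. MUC16 (ENSG00000181143, chromosome 19, 8848844 to 8981342, minus strand), the source of the tumour antigen CA125, had 1, 0 and 0 counts in the knockout libraries and 4, 2 and 1 in the parental libraries. MUC20 (ENSG00000176945, chromosome 3, 195720882 to 195741123, plus strand), known to bind the receptor MET, had 0, 1 and 1 counts in the knockout libraries and 2, 0 and 3 in the parental libraries. In a fit without the low-count filter, MUC16 had an edgeR adjusted p of 0.183 and MUC20 of 0.580, and no fold change is given because nearly all these libraries lie at or under 3 counts. These limits cover counting error only.

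MUC20 shares 1820 exon bases with MUC20-OT1 on the same strand, and reads in that stretch may have been lost or counted for the other gene. MUC20-OT1 had counts of 44, 33 and 42 in the knockout libraries and 30, 32 and 27 in the parental libraries (log2 fold change 0.25, SE 0.23, edgeR adjusted p 0.416). It is the nearest tested gene before both MUC20 and MUC4, which lie 5.64 kb apart. PPP1R2, a phosphatase inhibitor, is the second and stood at 0.076 (SE 0.072, edgeR adjusted p 0.437). On the far side are TNK2, a tyrosine kinase, at 0.091 (SE 0.063, edgeR adjusted p 0.270) and AC124944.2 at -0.39 (SE 0.26, edgeR adjusted p 0.257). MUC16 lies 1335 kb from the deleted RAVER1 gene on chromosome 19. Around MUC16, ZNF558 rose by 0.38 (SE 0.10) and the metalloprotease ADAMTS10 fell by 0.21 (SE 0.075), while ZNF317 stood at 0.051 (SE 0.053, edgeR adjusted p 0.485) and ZNF699 at 0.38 (SE 0.16, edgeR adjusted p 0.0739).

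Divided by gene length, so that mucins can be set beside each other, MUC5AC led in both groups at 8.61 ± 0.42 CPM per kilobase in knockout and 8.28 ± 0.115 in parental cells (SD, n = 3 each). MUC13 followed with 2.58 ± 0.27 CPM per kilobase in knockout and 5.04 ± 0.29 in parental cells. MUC1 came next with 0.871 ± 0.062 in knockout and 1.08 ± 0.16 in parental cells. In parental cells MUC5B stood below it in mean, at 0.791 ± 0.332 CPM per kilobase, and its 3 libraries (0.505, 1.16 and 0.713) overlapped those of MUC1 (0.965, 1.01 and 1.27). In knockout cells MUC5B, at 0.0749 ± 0.0360 CPM per kilobase, stood below MUC3A, at 0.256 ± 0.004, with no overlap, whereas in parental cells all libraries of MUC5B lay above MUC3A at 0.241 ± 0.031. MUC2, MUC16 and MUC20 stayed under 0.03 CPM per kilobase in every library. Annotated lengths of repeat regions, and the share of reads that map there uniquely, limit such comparisons between genes.

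Reads of the 9 genes made up 0.0157% to 0.0171% of all counts in knockout libraries and 0.0176% to 0.0196% in parental libraries. Per kilobase, MUC5AC supplied 68.0%, 69.7% and 70.5% of the family's signal in knockout libraries, against 55.1%, 51.7% and 54.1% in parental libraries. The share of MUC13 was 22.1%, 20.8% and 19.5% in knockout libraries, against 33.1%, 33.5% and 31.3% in parental libraries. MUC5B supplied 0.871%, 0.371% and 0.541% in knockout libraries, against 3.41%, 7.20% and 4.60% in parental libraries. All 3 shares separated the groups without overlap, as did the CPM levels of 50.2% of all tested genes. The shares of all 9 genes add up to a whole in each library, so they depend on each other, while the level of MUC5AC itself did not pass the test.

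**Figure D3:**
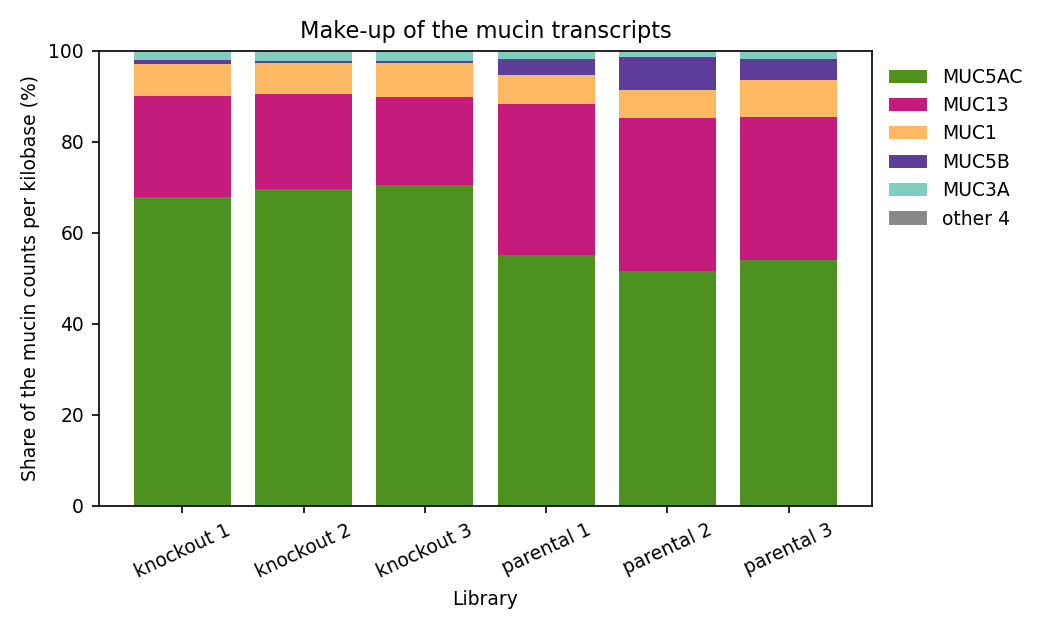
Share of each mucin in the summed counts per kilobase of the 9 mucins, in percent, for each library. MUC5AC supplies 68.0% to 70.5% in knockout libraries and 51.7% to 55.1% in parental libraries, and the MUC5B band is at most 0.871% in knockout libraries.

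The gene whose levels over the 6 libraries were most like those of MUC5B was PPFIBP2 (Pearson r 0.999 of log2 CPM with 0.5 added), followed by XBP1 and CHAC1 (each also 0.999). XBP1 encodes a transcription factor of the unfolded protein response that is needed in secretory cells, and CHAC1 an enzyme of glutathione breakdown. Their changes were smaller, with log2 fold changes of -0.38 for PPFIBP2, -0.61 for XBP1 and -0.73 for CHAC1. These likenesses describe 6 libraries that fall into 2 groups and share their depth, and no test was made on them.

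Transcription factors linked to mucin genes and to mucus-producing or endodermal epithelium fell more often than they rose. Of 22 such factors, 20 passed the filter, of which 12 were lower, 3 higher and 5 not past the threshold. That stands beside 20.1% lower and 21.3% higher over all tested genes. The median log2 fold change of the factors was -0.27 against 0.0019 over all tested genes. SOX2, a factor of foregut and airway progenitors, had 0.362, 0.578 and 0.226 CPM in knockout cells and 18.5, 17.4 and 17.9 CPM in parental cells (log2 fold change -5.47, SE 0.15, edgeR adjusted p 1.86e-15). FOXA3, which promotes goblet cell differentiation, had 2.35, 1.78 and 1.84 CPM in knockout cells and 12.6, 12.9 and 11.8 CPM in parental cells (-2.63, SE 0.11, edgeR adjusted p 1.10e-12). The epithelial ETS factor EHF fell as well (-1.99, SE 0.094, edgeR adjusted p 3.53e-12). SPDEF, the ETS factor known to drive goblet cell differentiation, was named after its values were seen and had 4.24, 2.41 and 3.06 CPM in knockout cells and 15.1, 19.8 and 17.0 CPM in parental cells (-2.41, SE 0.14, edgeR adjusted p 1.01e-10). The 3 higher factors were CREB3L1 (1.84, SE 0.13), CDX2 (1.44, SE 0.37) and STAT3 (0.25, SE 0.038), also named after their values were seen. CDX2 passed the filter through the knockout group alone and SOX2 through the parental group alone, so the counts of higher and lower factors are a description.

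Genes that fold mucins and release their granules fell on balance as well. Of 24 in the list, 20 passed the filter, of which 13 were lower, 2 higher and 5 not past the threshold, with a median of -0.33. Over all tested genes, 20.1% were lower and 21.3% higher. The lower genes include CFTR (3, 2 and 2 counts in knockout libraries, 19, 18 and 10 in parental libraries). They also include SLC26A9 (10, 7 and 3 counts in knockout libraries, 21, 20 and 24 in parental libraries). Both, named after their counts were seen, passed the filter through the parental group alone, so the count of lower genes is a description. UNC13D, which primes secretory granules for fusion, had 6.41, 6.23 and 6.25 CPM in knockout cells and 121, 108 and 118 CPM in parental cells (log2 fold change -4.20, SE 0.067, edgeR adjusted p 7.59e-19). AGR2, a protein disulfide isomerase of the endoplasmic reticulum that mouse intestine needs to make MUC2, had 29.6, 26.2 and 27.5 CPM in knockout cells and 163, 188 and 156 CPM in parental cells (-2.61, SE 0.067, edgeR adjusted p 6.81e-16). In both genes the groups were several-fold apart. MARCKS, a substrate of protein kinase C that takes part in mucin granule release, fell by 0.61 (SE 0.046), and the granule SNARE VAMP8, on chromosome 2, by 0.93 (SE 0.081). VAMP2, a vesicle SNARE picked out for its value, rose by 0.37 (SE 0.058).

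The enzymes that attach and build O-linked sugars moved both ways. The polypeptide GalNAc transferases place the first sugar on serine and threonine. Of 20 in the list, 14 passed the filter, of which 5 were higher, 5 lower and 4 not past the threshold, with a median of 0.021. The shares over all tested genes were 21.3% higher and 20.1% lower. GALNT4, among the lower and named after its counts were seen, passed the filter through the parental group alone. GALNT13 had 24.7, 29.7 and 29.1 CPM in knockout cells and 9.31, 10.2 and 9.94 CPM in parental cells (log2 fold change 1.503, SE 0.081, edgeR adjusted p 2.68e-11). GALNT18 (1.02, SE 0.057), GALNT16 (1.39, SE 0.084) and GALNT14 (0.71, SE 0.048) rose too. GALNT13 and GALNT14 lie on chromosome 2, where the median over 1125 tested genes was 0.42 on the log2 scale, and the part of that shift in these values was not tested. GALNT5, also on chromosome 2 and named after its value was seen, fell by 1.16 (SE 0.10).

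Among 20 enzymes that extend or cap the sugar chains, 11 passed the filter, with a median of -0.084. Of these, 3 were higher, 2 lower and 6 not past the threshold, beside 21.3% higher and 20.1% lower over all tested genes. B3GNT3, which extends the core chain, had 4.03, 2.66 and 4.61 CPM in knockout cells and 12.5, 12.4 and 14.3 CPM in parental cells (log2 fold change -1.81, SE 0.13, edgeR adjusted p 2.51e-09). The sialyltransferase ST3GAL1 fell by 0.58 (SE 0.070), while ST3GAL4 rose by 0.60 (SE 0.066) and ST3GAL2 by 0.34 (SE 0.051). The sialyltransferases thus moved in both directions.

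Other mucins and mucin-like surface proteins numbered 18, of which 17 were found in the table and 7 passed the filter. Of these, 4 were higher, 2 lower and 1 not past the threshold, with a median of 0.25. Beside them, 21.3% of all tested genes were higher and 20.1% lower. OVGP1, among the lower and named after its counts were seen, passed the filter through the parental group alone. The adhesion molecule MCAM, also called MUC18, had 42.9, 40.9 and 40.8 CPM in knockout cells and 22.7, 22.2 and 22.5 CPM in parental cells (log2 fold change 0.89, SE 0.057, edgeR adjusted p 3.34e-10). SELPLG, the selectin ligand PSGL-1, rose by 1.44 (SE 0.25) from a low level, and the sialomucin CD164 by 0.25 (SE 0.054). PODXL, podocalyxin, fell by 0.51 (SE 0.047). The counts were 0 in every library for 7 of the list, including MUC7, MUC15, MUC21 and MUC22.

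Known partners and sheddases of membrane mucins also moved both ways. Of 21, 19 passed the filter, with a median of 0.036. Among the 19, 6 were higher, 6 lower and 7 not past the threshold, beside 21.3% higher and 20.1% lower over all tested genes. The receptor ERBB2, a partner of MUC4, had 103, 96.5 and 97.2 CPM in knockout cells and 133, 131 and 131 CPM in parental cells (log2 fold change -0.41, SE 0.044, edgeR adjusted p 3.96e-07). EGFR rose by 0.38 (SE 0.043), and the cytoskeletal linker MSN by 0.32 (SE 0.040). ADAM17, a protease known to shed MUC1, rose by 0.56 (SE 0.051) and lies on chromosome 2.

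Most markers of goblet and airway secretory cells were close to absent in these cells. Of 22, 4 passed the filter, 10 had a count of 0 in every library, and the defining genes SCGB1A1, BPIFB1, CLCA1 and TFF2 were among those 10. The summed level of the list was 2.84 to 4.01 CPM in knockout and 7.06 to 12.7 CPM in parental libraries. FCGBP, a mucus component that binds gel-forming mucins, had 2.61, 1.21 and 1.93 CPM in knockout cells and 5.05, 9.02 and 6.19 CPM in parental cells (log2 fold change -1.81, SE 0.22, edgeR adjusted p 2.04e-06). CEACAM6, an adhesion molecule, had 0, 0 and 1 counts in knockout libraries and 39, 70 and 47 in parental libraries, so that it passed the filter through the parental group alone. The protease inhibitor SLPI also passed the filter through the parental group alone, with 5, 5 and 7 counts in knockout libraries and 14, 24 and 14 in parental libraries. Both genes had to differ in that direction to be tested, so the count of lower genes in this list is a description. TFF1, a trefoil peptide secreted with mucins, rose by 1.62 (SE 0.24). Whether cells of a secretory type were fewer or held less of these RNAs cannot be told apart in bulk RNA.

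Markers of other cells were low or moved differently. The 4 leukocyte markers summed to 3.87 to 5.17 CPM in knockout and 5.08 to 5.76 CPM in parental libraries, nearly all of it CD14, with CD3E at 0 in every library. The 4 endothelial markers summed to at most 0.103 CPM in knockout and 0.0658 CPM in parental libraries, with PECAM1 and CLDN5 at 0. The 6 fibroblast markers summed to 64.3 to 68.8 CPM in knockout and 46.9 to 49.8 CPM in parental libraries, nearly all of it COL1A1, with DCN at 0. Their part in the mucin values was not tested.

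**Figure D4:**
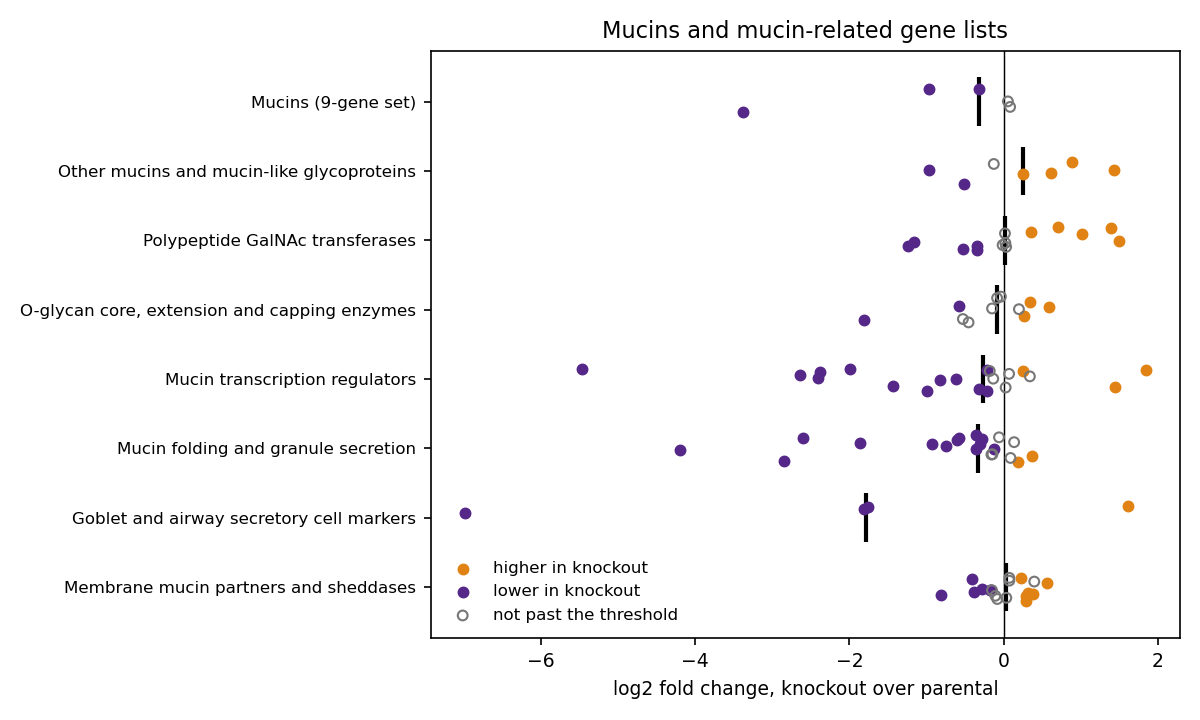
Log2 fold change, knockout over parental, of each gene that passed the low-count filter in the 9-mucin set and in 7 mucin-related lists, with a black bar at each median. Filled points passed the threshold. The lists of transcription regulators and of folding and secretion genes hold more lower than higher genes (12 against 3 and 13 against 2). Over all tested genes, 20.1% were lower and 21.3% higher. The counts of the 2 lists include SOX2, CFTR and SLC26A9, which passed the filter through the parental group alone. CDX2 passed it through the knockout group alone. CEACAM6, the leftmost point, had 1 count in all knockout libraries together, so its position depends on the fit.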

How the data were processed

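PolyA RNA was extracted with TRIzol and sequenced from 3 RAVER1 knockout and 3 parental A549 libraries with a stranded mRNA kit, as the labels' protocols state. The authors used cutadapt 2.8, HISAT2 2.1.0, SAMtools 1.10, featureCounts 2.0.0 and the build hg38, per the submitters' processing notes. Raw read counts and a gene length in bases make up the deposited table. No source used here gives the annotation release, the strand setting or the rule for reads that match several places. Such reads matter for mucins, whose coding sequence is repetitive.

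Groups and replicate numbers came from the sample titles. EdgeR 4.0.16 (R 4.3.3) was run on counts with filterByExpr, TMM scaling and the quasi-likelihood F-test, with no covariate. An SE is the log2 fold change divided by the square root of F, and CPM used TMM-scaled library sizes. Levels per kilobase used the deposited length. Positions and exon overlaps came from GENCODE 29, joined by identifier for 58437 genes, and promoters from RefSeq. Libraries of a group differed by more than sampling noise: chi-square per degree of freedom was 2.41 to 8.86 where a gene had 20 or more reads in both together.

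On simulated counts with 16551 genes tested, for the same 3 against 3 design, the fit found 33 of 50 genes set to a 1.25-fold change, 47 of 50 at 1.5-fold and all 50 at both 2-fold and 4-fold. It also called 16 of 16351 unchanged genes. The changed genes were drawn from well-counted ones, and the spread was taken from the parental libraries alone. In the data 41.4% of genes passed the threshold. Chi-square per degree of freedom reached 8.86 between knockout libraries, against 4.98 between parental ones. The simulated rates need not hold for these data.

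The members and lists were chosen with earlier results of these data known. Named genes were the 9 mucins, RAVER1, from each list up to 4 genes past the threshold, taken by smallest adjusted p, the 2 nearest tested genes on each side of a mucin, and the 3 genes most like the mucin with the largest change. Other genes are marked where they were named after their values were seen, and some genes are not reported here. Other settings tried were DESeq2 1.42.0, limma-voom (limma 3.58.1), RLE or upper-quartile scaling, no filter or a minimum of 1 CPM in 3 libraries, a block for replicate number, leaving out each library, and the longest transcript as length.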

Additional observations from a re-analysis of the deposited data

How the results depend on the processing

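MUC5B and MUC13 kept their direction and their side of the threshold under all 13 alternatives run, with log2 fold changes of -3.86 to -3.01 for MUC5B and -1.05 to -0.91 for MUC13. MUC5AC stayed within 0.024 to 0.099 and past no threshold. The MUC1 call was lost under 6 of the 13 alternatives, with adjusted p between 0.0515 and 0.290 in those 6 and as low as 0.0274 in the others. With 1 library left out, MUC3A ran from -0.014 to 0.14, the lowest being without parental replicate 2 (adjusted p 0.954); the cause of that change of sign was not tested. The number of mucins past the threshold was 2 or 3, and 3 with the replicate number as a block. Over all genes, 5827 to 7456 passed when 1 library was left out and 8346 with the replicate block, against 6886. Same-numbered libraries had correlations of deviations of 0.13, 0.029 and 0.014, and knockout replicate 3 correlated best with parental replicate 2 (0.067), so the numbers were not taken to pair the samples. Dividing by the longest transcript raised the level per kilobase of MUC13 to 3.14 in knockout and 6.13 in parental cells, that of MUC1 in knockout cells to 0.985 and that of MUC20 to 0.0067 in knockout and 0.018 in parental cells. RLE and upper-quartile scaling moved the median of all genes by -0.0040 and -0.033. Depth limits MUC2, MUC4, MUC16 and MUC20, for which differences were not detectable at these counts.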

Other observations

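Among the genes named above, several had the same order of libraries within a group as MUC5B. They include FCGBP, SPDEF, EHF, PPFIBP2, XBP1 and CHAC1. This pattern was chosen after the values were seen and is given without a test. PPFIBP2, XBP1 and CHAC1 were themselves picked for their likeness to MUC5B over these 6 libraries, so their order was fixed by that choice. AGR2 and FOXA3 shared the order of MUC5B in knockout cells and were also highest in parental replicate 2, but were lowest in parental replicate 3. Other named genes had another order, such as EGFR and GALNT13, which were lowest in knockout replicate 1. Over all genes, chi-square per degree of freedom was 8.86 and 5.70 between knockout replicate 1 and the others, against 2.41 between replicates 2 and 3. In knockout cells, replicate 1 held the highest and replicate 2 the lowest level of MUC5B (2.12 and 0.804 CPM), of FCGBP (2.61 and 1.21 CPM), of SPDEF (4.24 and 2.41 CPM) and of XBP1 (56.7 and 48.5 CPM). In parental cells, replicate 2 held the highest and replicate 1 the lowest level of MUC5B (21.5 and 9.39 CPM), of FCGBP (9.02 and 5.05 CPM), of SPDEF (19.8 and 15.1 CPM) and of XBP1 (87.2 and 73.6 CPM). MUC5AC varied less, with a ratio of its highest to its lowest library of 1.095 in knockout and 1.03 in parental cells, against 2.64 in knockout and 2.29 in parental cells for MUC5B.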
